A study of Mus musculus with 75 samples.

Results

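The 10 genes described here are Cdkn1a, Cdkn2a, Cdkn2b, Mdm2, Gdf15, Trp53inp1, Ccng1, Phlda3, Eda2r and Btg2. They are targets of the tumor suppressor p53 and inhibitors of cyclin-dependent kinases (CDKs) used as markers of cellular senescence. They were named as a known gene group, with earlier results of these data known, and no measured value enters the rule. They are 10 of the 55536 genes counted in these mouse livers. p53 is a transcription factor that is kept low by Mdm2, the ubiquitin ligase that marks it for degradation. When DNA damage or other stress stabilizes it, p53 raises genes that stop the cell cycle, repair DNA or start cell death. Lasting arrest through p21 (Cdkn1a) or through the Ink4 inhibitors p16 and p15 (Cdkn2a, Cdkn2b) is called senescence, and in the liver it is known both as a brake on tumor growth and as a feature of chronic injury.

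Liver RNA, total RNA read with a stranded library kit, came from male C57Bl/6 mice with no genetic change named in the labels, whose dams were given vehicle or tributyltin (TBT), an organotin that activates the nuclear receptors RXR and PPARγ. The exposure lasted until weaning. The TBT water held 3.07 µM, a dose of 0.5 mg per kg per day, and the sampled mice had no other treatment named in the labels. The groups were vehicle (7 samples) and TBT (8) at 3 weeks, vehicle (8), TBT at low risk (16) and TBT at high risk (10) at 5 months, and vehicle (6), low-risk TBT (5), uninvolved liver of high-risk TBT mice (5) and tumors of TBT mice (7) at 10 months. What put a 5-month mouse in a risk group is not given in the sources used here. Had expression in these livers been used for it, the p-values between risk groups of 5 months would not be a test. One further 10-month vehicle library carries the label of a tumor and was kept out of the comparisons. Litters are not given in the sources used here, so p-values measure the spread between mice that may share a dam.

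Totals ran from 2.83 to 45.4 M counts over 75 libraries, and the precision of each low gene follows from these totals. The 5-month livers were sequenced in 2 batches, which held 7 and 1 vehicles, 6 and 10 low-risk livers and 3 and 7 high-risk livers. 5 libraries stood apart by a total below 5 M, by more than 35000 detected genes or by a mitochondrial share above 10%, namely vehicle 9, low-risk 16, high-risk 10 and high-risk 15 of 5 months, and the 10-month vehicle labelled tumor. The 2 libraries of 10-month uninvolved livers 3 and 6 had a median squared difference per gene of 0.553 in units of sampling variance, against 1.35 for the next closest pair within a group, and were summed as 1 sample. Library TBT 4 of 3 weeks went against its label of male, with Xist at 348 CPM and a sum over 4 genes of the Y chromosome of 7.08 CPM, where each other library had at least 93.9 CPM of that sum. The next highest Xist was 84.6 CPM, in 5-month low-risk 24, with a Y sum of 237.2 CPM. The 6 hepatocyte markers (Alb, Apoa1, Ttr, Hnf4a, Cps1, Serpina1a) summed to between 34659 and 194073 CPM, and no group had one of them at a median of 0. Levels below are CPM (counts per 1 M counts of the library) scaled by TMM, a factor that evens out library composition, and a call means an adjusted p under 0.05 from edgeR's quasi-likelihood test over all genes.

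On the mouse assembly GRCm38, Cdkn1a lies at chr17:29090976-29100727 on the plus strand, Mdm2 at chr10:117688875-117710758 and Ccng1 at chr11:40748552-40755311, both on the minus strand. Cdkn2a (chr4:89274471-89294653) and Cdkn2b (chr4:89306299-89311039) are neighbours on the minus strand of chromosome 4, and Trp53inp1 (chr4:11156431-11174379) is on its plus strand. Phlda3 (chr1:135766119-135769136, plus strand) and Btg2 (chr1:134075170-134079120, minus strand) share chromosome 1. Gdf15 is at chr8:70629393-70632456 and Eda2r at chrX:97333840-97377216, both on the minus strand. All 10 are annotated as protein-coding. The Cdkn2a count joins the transcripts of p16 and of Arf, the inhibitor of Mdm2 read from the same gene, and cannot tell them apart. Exons of Cdkn1a share 273 bases with AC167363.2 on the opposite strand, and the strand setting of the counting is not given in the sources used here.

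RefSeq promoter windows of 300 bases, from 250 before to 50 after a start, were found for 9 of the 10 genes on GRCm38.p6, in 12 windows. The windows were searched on both strands for the p53 half-site of 10 bases, and for 2 half-sites side by side (20 bases) with at most 1 mismatch. A half-site was in 3 of the 12 windows, those of Cdkn1a, Ccng1 and Mdm2, and in 8.36% of all 32851 promoter windows. The adjacent pair was in the windows of Cdkn1a and Ccng1 and in 29 of the 32851 windows (0.0883%). These 3 stretches are shown because they are where the members' windows hold the letters that p53 is known to bind. Each is 80 bases, 5′ to 3′ on the gene's strand. Capitals mark the adjacent pair in Cdkn1a and Ccng1, with 1 mismatch each, and the half-site in Mdm2. The Cdkn1a window holds 2 half-sites without a mismatch, and the capitals mark only the one within the pair. They lie at chr17:29090898-29090977, chr11:40755432-40755511 and chr10:117710900-117710979.
Cdkn1a: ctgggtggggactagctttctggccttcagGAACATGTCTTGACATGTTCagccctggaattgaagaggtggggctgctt
Ccng1: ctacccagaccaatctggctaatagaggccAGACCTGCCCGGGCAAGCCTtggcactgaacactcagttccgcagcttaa
Mdm2: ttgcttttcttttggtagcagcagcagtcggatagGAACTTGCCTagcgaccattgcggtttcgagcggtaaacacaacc

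Per kilobase of exon, the median level over the 73 samples was highest for Trp53inp1 (15.1 CPM per kb), Ccng1 (14.7) and Btg2 (11.3). Mdm2 (5.45), Cdkn1a (4.61) and Gdf15 (2.83) were lower, Phlda3 (0.785), Cdkn2b (0.238) and Eda2r (0.223) lower again, and Cdkn2a (0.0738) lowest. Over the samples Cdkn1a ran from 0.122 to 22.9 CPM per kb and Phlda3 from 0.0518 to 9.72 CPM per kb, while Mdm2 ran from 2.50 to 8.80 CPM per kb. Cdkn2a had 0 counts in 23 of the 72 samples of the 9 groups and at most 3 counts in 43, and a count of 0 allows up to 0.0398 to 0.646 CPM (3 counts) depending on the library. Among the comparisons over all samples it passed the filter on low counts in those with tumors, and within batch 2 of 5 months it passed too. Cdkn2b had 0 counts in 5 samples and at most 3 in 23. For each gene the 9 groups were ordered by mean, and in all 80 pairs of neighbours in these orders the ranges of the samples overlapped.

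**Figure D1:**
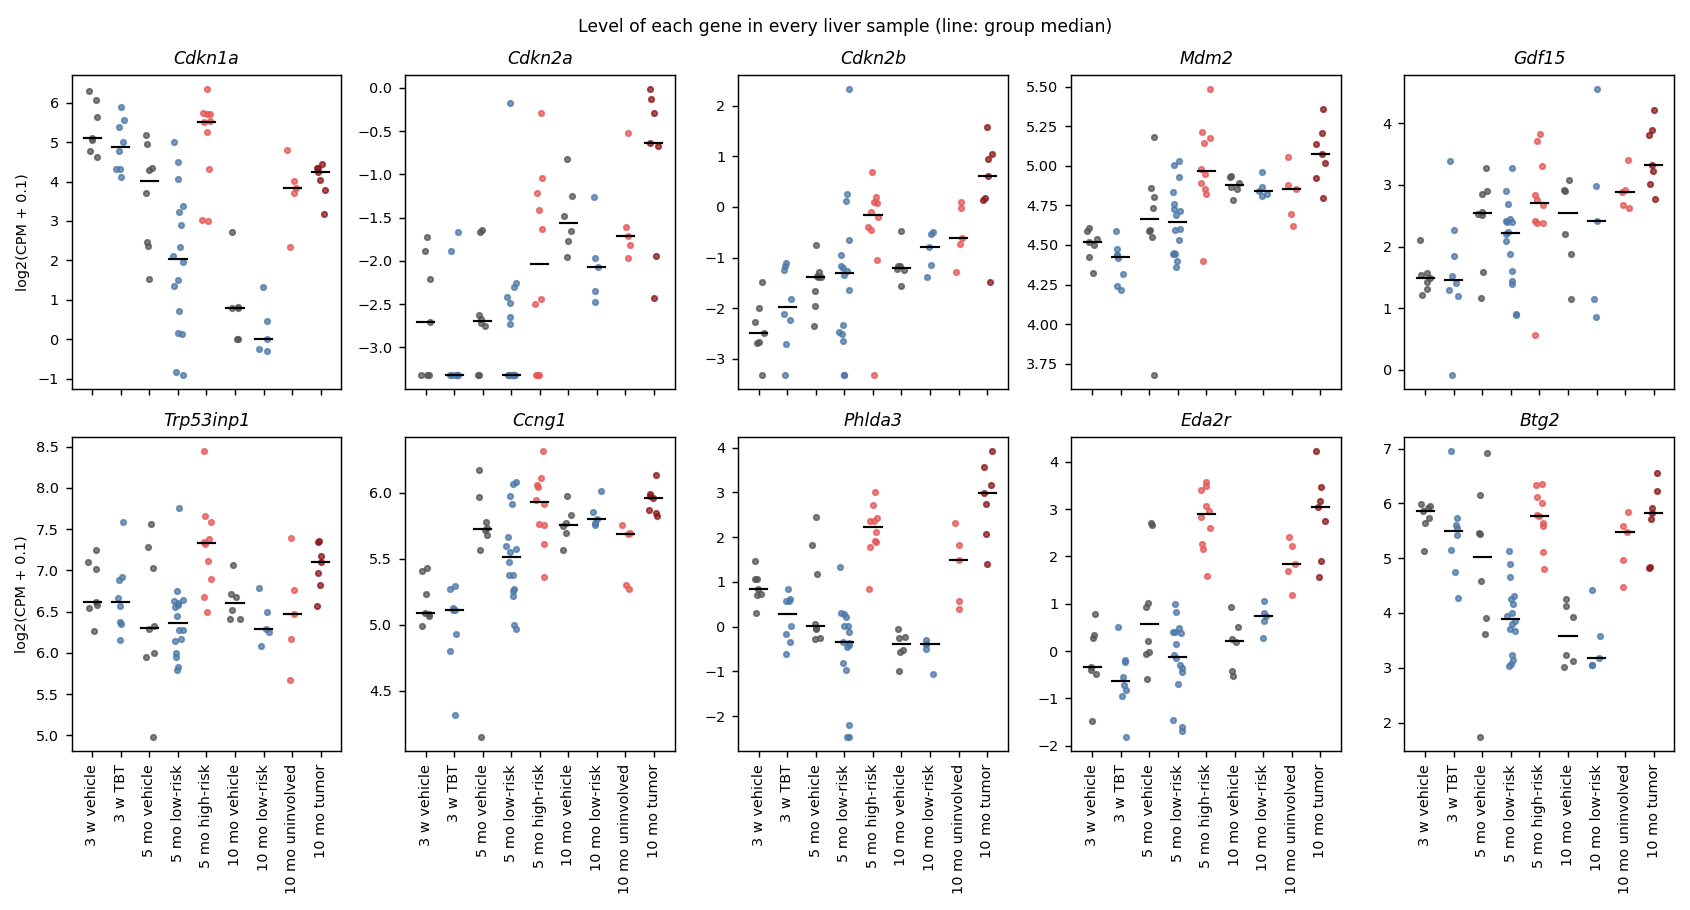
Level of each of the 10 genes in the 72 samples of the 9 groups, as log2(CPM + 0.1) on the vertical axis, with 1 point per sample and a line at the group median. Cdkn1a, Phlda3, Eda2r and Btg2 are low in the 5-month and 10-month low-risk livers and high in the 5-month high-risk livers, the 10-month uninvolved livers and the tumors. These genes are also low in the 10-month vehicles, and the 5-month vehicles spread widely. At 3 weeks Cdkn1a and Btg2 are high as well, with means of 44.9 and 54.5 CPM in vehicles.

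At 5 months, 8 of the 9 members tested were higher in high-risk than in low-risk livers and 0 were lower, where 20.3% of the 14773 genes tested were higher and 18.5% lower. The median log2 fold change of the 9 was 0.95, beside -0.01 over all genes. Eda2r did not overlap between the groups, as 1.16% of genes did. More or fewer cells of a type and more or less RNA per cell cannot be told apart in these bulk samples.

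Cdkn1a encodes p21, the CDK inhibitor through which p53 arrests cells. It ran from 0.432 through a median of 4.01 to 32.0 CPM in low-risk livers and from 7.90 through 45.7 to 81.4 CPM in high-risk livers. The ranges overlapped, with 7 of 10 high-risk values over the low-risk maximum. The increase was 5.54-fold (log2 2.47 ± 0.55 SE, adjusted p = 0.000636), with 2.71 within batch 1 (adjusted p = 0.158) and 2.30 within batch 2 (adjusted p = 0.00729). Cdkn2b, which encodes the CDK4/6 inhibitor p15, was between 0 and 4.92 CPM in low-risk livers (median 0.304) and between 0 and 1.51 CPM in high-risk livers (median 0.798). Its log2 difference was 0.74 ± 0.61 (adjusted p = 0.35), with -1.20 within batch 1 and 1.53 within batch 2, and it was not called. The low-risk value of 4.92 CPM lay in batch 1. The medians there were 0.339 CPM in low-risk and 0.659 CPM in high-risk livers, against 0.0899 and 0.953 CPM in batch 2. Cdkn2a did not pass the filter over both batches. Within batch 2, where it did, its log2 difference was 1.22 (adjusted p = 0.391). It had at most 7 counts in a low-risk liver and 11 in a high-risk liver, with 0 counts in 9 of 16 and 3 of 10.

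Among the genes that feed back on p53, Mdm2 ran from 20.4 through 24.9 to 32.7 CPM in low-risk livers and from 21 through 31.1 to 44.7 CPM in high-risk livers. It was 1.30-fold higher (log2 0.38 ± 0.09, adjusted p = 0.00137), with 0.48 and 0.29 within the batches, neither past the threshold (adjusted p = 0.125 and 0.059). Trp53inp1, which encodes a nuclear partner of p53 that also takes part in autophagy, ran from 55.4 through 82.1 to 216.9 CPM in low-risk livers and from 90.2 through 161 to 349.5 CPM in high-risk livers. All 10 high-risk livers lay above the low-risk median, while low-risk 16 overlapped the upper range. Trp53inp1 was 1.93-fold higher (log2 0.95 ± 0.21, adjusted p = 0.000475), by 1.21 within batch 1 (adjusted p = 0.121) and 0.77 within batch 2 (adjusted p = 0.00127). Ccng1 encodes cyclin G1, which recruits a phosphatase to Mdm2. It ran from 31.2 through 45.6 to 67.6 CPM in low-risk livers and from 41.0 through 60.7 to 79.6 CPM in high-risk livers, 1.31-fold higher (log2 0.39 ± 0.11, adjusted p = 0.00393). Its log2 difference was 0.33 within batch 1 (adjusted p = 0.376) and 0.39 within batch 2 (adjusted p = 0.0412).

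Of the growth arrest and death genes, Eda2r and Phlda3 had the 2 largest differences of the 9. Eda2r, the receptor for ectodysplasin A2, ran from 0.21 through 0.82 to 1.90 CPM in low-risk livers and from 2.90 through 7.37 to 11.7 CPM in high-risk livers. The groups did not overlap, and the increase was 8.32-fold (log2 3.06 ± 0.35, adjusted p = 8.88e-08). Phlda3, which encodes a repressor of Akt signalling, ran from 0.0807 through 0.683 to 2.43 CPM and from 1.70 through 4.62 to 7.90 CPM, and was 6.12-fold higher (log2 2.61 ± 0.39, adjusted p = 2.6e-06). Only high-risk 15 fell within the low-risk range of Phlda3. Btg2, an antiproliferative cofactor of mRNA deadenylation that is also an immediate early gene, ran from 8.13 through 14.7 to 34.9 CPM and from 27.8 through 54.7 to 81.5 CPM. It was 3.45-fold higher (log2 1.79 ± 0.31, adjusted p = 2.88e-05), with 8 of 10 high-risk values over the low-risk maximum. Within batch 1 the log2 differences of Eda2r, Phlda3 and Btg2 were 3.61, 2.87 and 2.05 (adjusted p = 0.0112, 0.0336 and 0.0692), and within batch 2 they were 2.70, 2.43 and 1.60 (adjusted p = 3.16e-06, 7.4e-05 and 0.000161).

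Gdf15 encodes a secreted stress hormone that p53 and the integrated stress response are both known to raise. It ran from 1.76 through 4.55 to 9.55 CPM in low-risk livers and from 1.38 through 6.44 to 14.1 CPM in high-risk livers. The lowest value of both groups was in high-risk liver 1, and 3 high-risk values passed the low-risk maximum. Gdf15 was 1.65-fold higher (log2 0.72 ± 0.27, adjusted p = 0.033), by 0.16 within batch 1 (adjusted p = 0.881) and 0.93 within batch 2 (adjusted p = 0.0447). Over both batches, 2 members were called within batch 1 (3 against 6 livers) and 7 within batch 2 (7 against 10 livers).

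**Figure D2:**
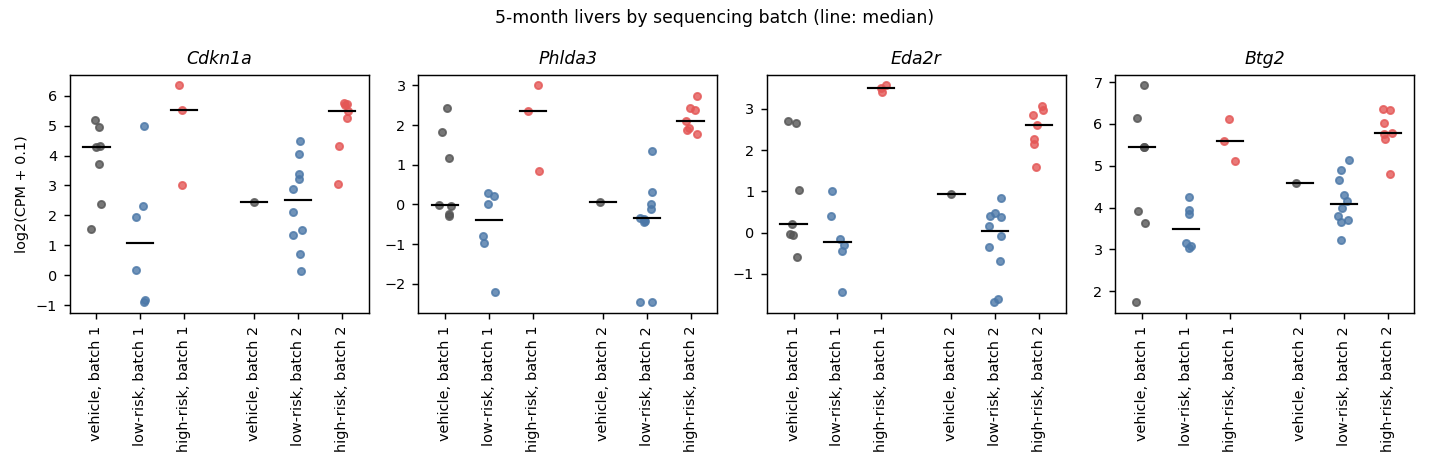
Cdkn1a, Phlda3, Eda2r and Btg2 in the 5-month livers, as log2(CPM + 0.1) on the vertical axis, by group and sequencing batch, with 1 point per liver and a line at the median. High-risk medians are above low-risk medians in both batches for all 4 genes, and the vehicles of batch 1 spread over both.

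Against the 8 vehicles of 5 months, 4 of the 9 members were higher in high-risk livers and 0 lower, where 8.47% of genes were higher and 7.38% lower. This comparison uses the same high-risk livers as the one above. Eda2r was 3.44-fold higher (log2 1.78 ± 0.44, adjusted p = 0.00645), Trp53inp1 1.97-fold (0.98 ± 0.28, adjusted p = 0.0144), Mdm2 1.35-fold (0.44 ± 0.12, adjusted p = 0.013) and Ccng1 1.32-fold (0.40 ± 0.14, adjusted p = 0.0455). The vehicles spread widely. Eda2r was 0.562, 0.852, 0.883, 1.05, 1.80 and 1.94 CPM in 6 of them, and 6.23 and 6.43 CPM in vehicles 4 and 6, within the high-risk range. The same 2 vehicles had the highest levels of Phlda3 (3.43 and 5.33 CPM), Btg2 (71.1 and 121.3 CPM) and Trp53inp1 (189.3 and 155.7 CPM). Cdkn1a ran from 2.8 through 16.3 to 36.1 CPM in the vehicles and was not called (log2 1.45 ± 0.74, adjusted p = 0.185), nor was Phlda3 (1.22 ± 0.51, adjusted p = 0.102) or Cdkn2b (2.29 ± 0.85, adjusted p = 0.0607). Without high-risk 15 the calls of Mdm2, Trp53inp1 and Ccng1 were lost (adjusted p = 0.0818, 0.0944 and 0.0693) and Cdkn2b was called (adjusted p = 0.0262). Ccng1 was also lost without low-risk 16 (adjusted p = 0.0508), and Phlda3 and Cdkn2b were called without vehicle 9 (adjusted p = 0.0437 and 0.04). Without all 4 libraries that stood apart, the log2 difference of Cdkn1a was 0.24 (adjusted p = 0.85). Within batch 1 the log2 difference of Eda2r was 2.05 (adjusted p = 0.17), and batch 2 held a single vehicle.

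Between low-risk livers and vehicles of 5 months, edgeR's quasi-likelihood test called 0 of 9 members and 0 of 14773 genes (0%). At an unadjusted p under 0.05 there were 4 members, and DESeq2 called 1. The 4 were Btg2 (log2 -1.53 ± 0.39), Eda2r (-1.27 ± 0.42), Phlda3 (-1.39 ± 0.49) and Cdkn2b (1.55 ± 0.71), with adjusted p from 0.362 to 0.756. The medians of Cdkn2b were close, at 0.304 CPM in low-risk livers and 0.282 CPM in vehicles. Its low-risk values reached 4.92 CPM, and 9 of 16 lay above the vehicle median. Btg2 was the one that DESeq2 called (log2 -1.51, adjusted p = 0.0207), and 15 of 16 low-risk livers lay below the vehicle median of 33.7 CPM. Within batch 2, which had 1 vehicle, its log2 difference was -0.30.

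At 10 months, 4 of the 9 members tested were higher in uninvolved livers than in low-risk livers and 1 was lower, where 27.7% of the 16338 genes tested were higher and 24.7% lower. The groups did not overlap for any of the 5, 4 above and 1 below, as 15.8% and 12.9% of genes did. The median log2 fold change of the 9 was 0.42, beside 0.05 over all genes. The uninvolved samples also stood apart in library measures. Their mitochondrial share was 4.20% to 5.85%, against 2.94% to 3.08% in low-risk livers, 3.14% to 3.83% in vehicles and 2.64% to 3.46% in tumors. They had 24676 to 28715 genes detected, against at most 23868 in those 3 groups, and totals of 34.8 to 76.2 M counts, the highest being the summed sample, against 33.5 M at most. The part of these measures in the differences from uninvolved livers was not tested.

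Cdkn1a was 0.716, 0.739, 0.897, 1.28 and 2.39 CPM in the 5 low-risk livers and 4.94, 13.1, 14.2, 16.1 and 27.8 CPM in the 5 uninvolved samples. This 12-fold increase (log2 3.59 ± 0.58, adjusted p = 0.00014) was the largest of the members here. Phlda3 was 0.381, 0.609, 0.663, 0.669 and 0.716 CPM in low-risk livers and 1.22, 1.39, 2.71, 3.44 and 4.85 CPM in uninvolved livers, 4.31-fold higher (log2 2.11 ± 0.34, adjusted p = 9.42e-05). Btg2 was 8.22, 8.24, 9.01, 11.9 and 21.2 CPM and then 22.1, 31.1, 44.7, 48.2 and 57.3 CPM, 3.35-fold higher (log2 1.75 ± 0.33, adjusted p = 0.000482). The highest low-risk value of Btg2, in mouse 8, lay just under the lowest uninvolved value, in mouse 7. Eda2r was 1.11, 1.44, 1.56, 1.63 and 1.97 CPM in low-risk livers and 2.16, 3.14, 3.49, 4.56 and 5.20 CPM in uninvolved livers. Its increase of 2.32-fold (log2 1.22 ± 0.27, adjusted p = 0.00155) was smaller than that of the 3 genes before it.

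Ccng1 went the other way. It was 53.9, 54.3, 55.6, 57.7 and 64.6 CPM in low-risk livers and 38.6, 39.4, 51.5, 51.7 and 53.8 CPM in uninvolved livers, a fall of 0.33 ± 0.11 on the log2 scale (log2 -0.33, adjusted p = 0.0164). The highest uninvolved and the lowest low-risk values nearly met, and the call was lost without low-risk 10 (-0.28, adjusted p = 0.0527) or without the summed sample of uninvolved livers 3 and 6 (-0.25, adjusted p = 0.0514). The other 4 calls held without that summed sample, at log2 3.29 for Cdkn1a, 1.82 for Phlda3, 1.16 for Eda2r and 1.71 for Btg2. Mdm2 was between 27.9 and 31.1 CPM in low-risk livers and between 24.5 and 33.2 CPM in uninvolved livers, with a log2 difference of -0.08 ± 0.08 (adjusted p = 0.46). Trp53inp1 (log2 0.17 ± 0.24), Gdf15 (-0.16 ± 0.56) and Cdkn2b (0.42 ± 0.34) were not called either. Gdf15 in low-risk livers was 1.72, 2.11, 5.25, 7.82 and 23.5 CPM, so that a single liver, mouse 10, lay above all 5 uninvolved samples.

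Against 10-month vehicles the uninvolved livers had 4 members higher and 1 lower, where 31.2% and 26.5% of genes were. These are the same uninvolved samples as in the comparison with low-risk livers. Cdkn1a was 0.909 to 6.45 CPM in the vehicles (median 1.64) and 6.52-fold higher in uninvolved livers (log2 2.70 ± 0.51, adjusted p = 0.000378), with vehicle 5 alone within their range. Phlda3 (3.96-fold, log2 1.98 ± 0.32), Eda2r (3.27-fold, 1.71 ± 0.27) and Btg2 (3.00-fold, 1.59 ± 0.31) did not overlap, as 17.6% of genes did from above. Ccng1 was lower (log2 -0.28 ± 0.10, adjusted p = 0.0293), and lost its call without uninvolved 12 (adjusted p = 0.0845) or the summed sample (adjusted p = 0.0935). Cdkn2b was called without uninvolved 7 (log2 0.91, adjusted p = 0.0246). Same-numbered uninvolved livers and vehicles are different mice, and their deviations correlated weakly (0.11 to 0.14). With the number as a block Ccng1 was not called (log2 -0.28, adjusted p = 0.0983) while the other 4 were. Low-risk livers and vehicles of 10 months differed in 0 of 9 members by edgeR's test (0% of genes called), in 0 at an unadjusted p under 0.05 and in 0 by DESeq2.

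**Figure D3:**
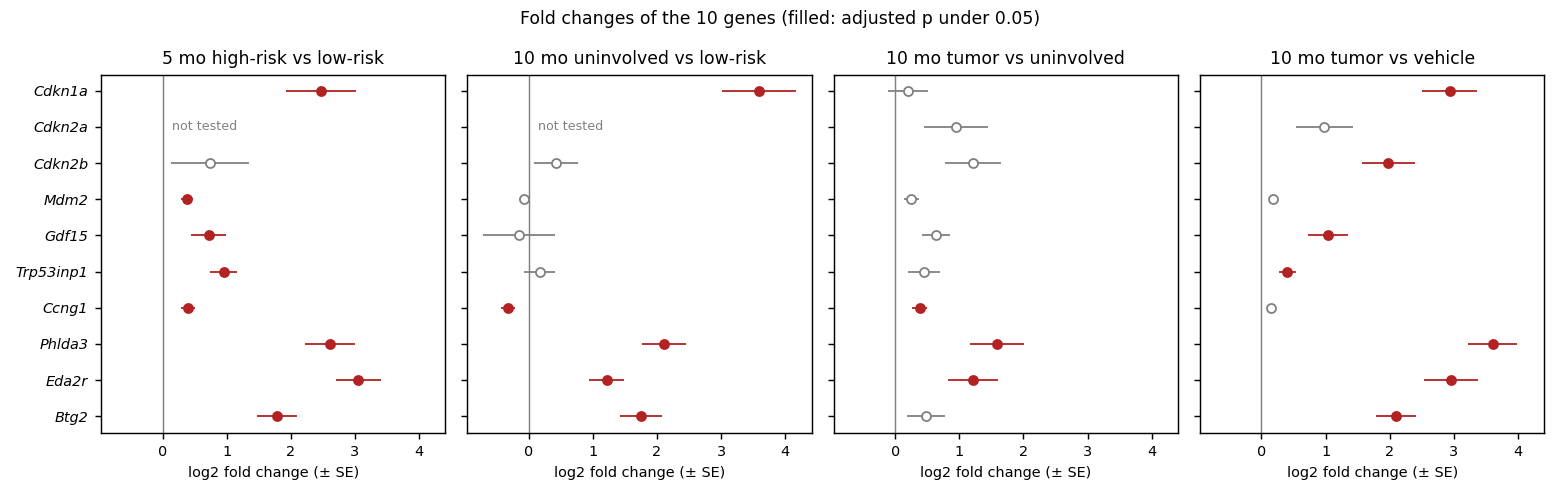
Log2 fold change of each of the 10 genes with its standard error on the horizontal axis, in 4 comparisons, with filled points at an adjusted p under 0.05. Cdkn1a is past the threshold in 3 of the 4 panels and at 0.20 between tumors and uninvolved livers, and Ccng1 is the only filled point below 0.

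Between tumors and uninvolved livers of 10 months, 3 of 10 members were higher and 0 lower, where 7.55% of 16362 genes were higher and 10.5% lower. Ccng1 did not overlap, as 3.06% of genes did from above. The labels give mouse numbers that pair a tumor with the uninvolved liver of the same mouse. In mice 1, 5, 7 and 12, Phlda3 was 7.78, 8.88, 2.52 and 11.8 CPM in the tumor and 2.71, 1.39, 1.22 and 3.44 CPM in the uninvolved liver, higher in the tumor in 4 of 4. The tumors of mice 3, 6 and 11 had 6.63, 4.08 and 15.1 CPM, and the summed uninvolved sample of mice 3 and 6 had 4.85 CPM. Phlda3 was 3.01-fold higher over all samples (log2 1.59 ± 0.42, adjusted p = 0.022).

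Eda2r was 6.62, 8.16, 2.86 and 10.9 CPM in the tumors of mice 1, 5, 7 and 12 and 5.20, 3.14, 2.16 and 3.49 CPM in their uninvolved livers, and reached 18.7 CPM in tumor 11. It was 2.31-fold higher (log2 1.21 ± 0.39, adjusted p = 0.0458). Ccng1 was 62.8, 70.0, 58.2 and 57.4 CPM in these 4 tumors and 53.8, 51.5, 51.7 and 38.6 CPM in the uninvolved livers, 1.31-fold higher (log2 0.39 ± 0.12, adjusted p = 0.0348). Each of the 3 calls was near the threshold. Phlda3 was lost without uninvolved 1, 5 or 7 (adjusted p = 0.0561, 0.0599 and 0.0596) and Ccng1 without uninvolved 12 or the summed sample (adjusted p = 0.0535 and 0.052). Eda2r was lost without any 1 of the 5 uninvolved samples (adjusted p from 0.0522 to 0.114). With the mouse as a block over 6 pairs, Eda2r was lost (log2 0.78, adjusted p = 0.0822). Over the 4 pairs without mice 3 and 6, Ccng1 was lost (log2 0.36, adjusted p = 0.0576) and Gdf15 was called (log2 0.67, adjusted p = 0.0342).

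Cdkn1a was not called between tumors and uninvolved livers (log2 0.20 ± 0.31, adjusted p = 0.68), with 8.93 through 18.9 to 21.8 CPM in tumors. Cdkn2a, tested here, was 0.0855, 0.16, 0.53, 0.544, 0.72, 0.818 and 0.892 CPM in the 7 tumors (2 to 26 counts) and 0.156, 0.184, 0.205, 0.227 and 0.596 CPM in uninvolved livers. Its log2 difference was 0.95 ± 0.50 (adjusted p = 0.191), and tumors lay on both sides of the uninvolved range. Cdkn2b was above every uninvolved liver in 6 of 7 tumors, at 0.998 to 2.88 CPM, and at 0.256 CPM in tumor 7 (log2 1.21 ± 0.44, adjusted p = 0.0695). DESeq2 called Cdkn2b (adjusted p = 0.0292) and Gdf15 (adjusted p = 0.0301). Gdf15 was also called without the summed uninvolved sample (log2 0.76, adjusted p = 0.0333), and Trp53inp1 without uninvolved 5 (log2 0.76, adjusted p = 0.0394). Tumor 7 had the lowest level among tumors of Phlda3, Eda2r, Btg2, Mdm2, Gdf15, Trp53inp1, Cdkn2a and Cdkn2b.

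Against vehicles, 7 of 10 members were higher in tumors and 0 lower, where 24.8% of 15293 genes were higher and 21% lower. Phlda3 was 12.2-fold higher (log2 3.61 ± 0.38, adjusted p = 1.16e-05), Eda2r 7.73-fold (2.95 ± 0.42, adjusted p = 0.000101), Cdkn1a 7.63-fold (2.93 ± 0.43, adjusted p = 0.000137) and Btg2 4.28-fold (2.10 ± 0.31, adjusted p = 0.000159). These 4 did not overlap, as 11.2% of genes did from above. Cdkn2b (3.94-fold, log2 1.98 ± 0.42), Gdf15 (2.05-fold, 1.03 ± 0.31) and Trp53inp1 (1.32-fold, 0.40 ± 0.13) were called with overlapping ranges. Cdkn2a (log2 0.98 ± 0.44, adjusted p = 0.085), Mdm2 (0.19 ± 0.08, adjusted p = 0.055) and Ccng1 (0.16 ± 0.07, adjusted p = 0.0764) were not called. The vehicles here are those of the comparison with uninvolved livers.

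At 3 weeks edgeR's test called 0 of 8 members between TBT livers and vehicles (0% of 14050 genes), DESeq2 0, and 1 was under an unadjusted p of 0.05. That gene was Phlda3, at 0.556 through 1.15 to 1.70 CPM in TBT livers and 1.14 through 1.70 to 2.66 CPM in vehicles (log2 -0.67 ± 0.25, adjusted p = 0.999). Cdkn1a was 17.3 through 29.6 to 58.7 CPM and 24.7 through 34.4 to 78.2 CPM, with a log2 difference of -0.45 ± 0.31 (adjusted p = 0.999). Leaving out TBT 4, the library that went against its label, left the count at 0.

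Among vehicles of batch 1, 3 members rose and 1 fell between 3 weeks and 5 months, where 11.9% of 14962 genes were higher and 12.3% lower. Gdf15 rose from 2.23 through 2.71 to 4.19 CPM at 3 weeks to 2.15 through 5.82 to 9.62 CPM (log2 1.08 ± 0.28, adjusted p = 0.00657). Ccng1 rose 1.42-fold (log2 0.51 ± 0.11, adjusted p = 0.00233) and Eda2r 3.02-fold (1.59 ± 0.54, adjusted p = 0.034), while Cdkn1a fell (log2 -1.28 ± 0.44, adjusted p = 0.0402). The ranges of Eda2r overlapped, at 0.257 through 0.691 to 1.63 CPM at 3 weeks and 0.562 through 1.05 to 6.43 CPM at 5 months. Vehicles 4 and 6 were the highest of the 5-month values. From 5 to 10 months 3 members fell and 0 rose, where 7.41% of genes were lower and 6.68% higher. Cdkn1a fell from 2.8 through 19.6 to 36.1 CPM to 0.909 through 1.64 to 6.45 CPM (log2 -3.10 ± 0.53, adjusted p = 0.0013), with overlapping ranges. The value of 2.8 CPM was 13 counts in vehicle 9, a library that stood apart. Btg2 (log2 -1.80 ± 0.47, adjusted p = 0.0178) and Phlda3 (-1.73 ± 0.47, adjusted p = 0.0183) also fell, and their 5-month levels include vehicles 4 and 6. Cdkn2b and Cdkn2a had too few counts to be tested over age.

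Whether the difference between risk groups itself changed with age was tested as 10 months (uninvolved minus low-risk) minus 5 months (high-risk minus low-risk). It was lower at 10 months for 2 of 9 members and higher for 0, where 0.267% of 16084 genes were lower and 0.18% higher. Eda2r had a log2 difference smaller by 1.85 at 10 months (-1.85 ± 0.44, adjusted p = 0.0434) and Ccng1 differed by -0.73 ± 0.18 (adjusted p = 0.0462), having been higher at 5 months and lower at 10. Both calls were near the threshold. Ccng1 was lost without any 1 of the 10 samples of 10 months, and Eda2r without any 1 except the summed sample (adjusted p from 0.0527 to 0.113). The change of Mdm2 was -0.45 ± 0.15 (adjusted p = 0.188) and that of Cdkn1a 1.12 ± 1.03 (adjusted p = 0.706).

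Other genes of the pathway were read from lists, whose counts are to be read against the shares of all genes called, 20.3% higher and 18.5% lower between risk groups at 5 months and 27.7% and 24.7% at 10 months. At 5 months 12 of 29 other p53 targets were higher in high-risk than low-risk livers and 3 lower (median log2 0.40). Tnfrsf10b, a death receptor, was 2.74 ± 1.30 CPM against 0.352 ± 0.246 CPM (SD, log2 2.94 ± 0.49 SE, adjusted p = 1.52e-05). Zmat3, an RNA-binding growth inhibitor, was 13.8 ± 5.36 against 7.23 ± 3.45 CPM (log2 1.01, adjusted p = 3.39e-05). Dcxr (log2 -0.81), a xylulose reductase, and Ei24 (-0.35), an endoplasmic reticulum membrane protein, were lower. Of 13 genes of p53 and its regulators 4 were higher, among them the checkpoint kinase Chek1 (log2 1.85, adjusted p = 0.000587) and Trp53bp1 (0.43), and 1 lower, the deacetylase Sirt1 (-0.32). At 10 months 8 of 29 other targets were higher in uninvolved than low-risk livers and 4 lower (median 0.16), a share higher that was near that of all genes. Psrc1, a spindle protein, was 1.22 ± 0.73 against 0.0497 ± 0.0591 CPM (SD, adjusted p = 3.59e-05), and Perp, a desmosome protein, 58.0 ± 7.41 against 105 ± 9.12 CPM (adjusted p = 1.22e-06). Trp53 itself was 14.8 ± 3.09 against 9.25 ± 0.619 CPM (log2 0.63 ± 0.12, adjusted p = 0.000315), while the kinases Atm (-0.46) and Atr (-0.59) were lower. Between tumors and uninvolved livers 0 of 30 other targets were higher and 1, the repair gene Xpc, was lower (log2 -0.34, adjusted p = 0.0321), where 7.55% of all genes were higher and 10.5% lower.

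The inhibitors act on the CDK-Rb-E2F axis. At 5 months Cdkn2c (p18, 11.9 ± 3.50 against 4.64 ± 2.18 CPM, adjusted p = 0.000167) and Cdkn3 (3.24 ± 1.49 against 0.359 ± 0.353 CPM, adjusted p = 3.31e-05) were higher in high-risk than low-risk livers, 2 of 5 other CDK inhibitors. Of 20 genes of the axis 7 were higher, led by the S and M phase genes Ccna2 (14.7 ± 7.40 against 1.65 ± 1.03 CPM) and Cdk1 (14.7 ± 6.6 against 1.62 ± 0.913 CPM), and 2 were lower, E2f8 (log2 -1.52) and Rbl2 (-0.20), where 20.3% of all genes were higher and 18.5% lower. At 10 months 4 of 5 other inhibitors and 9 of 20 axis genes were higher in uninvolved than low-risk livers and 3 axis genes lower, where 27.7% and 24.7% of all genes were. Ccnd1, which drives CDK4/6, was 74.2 ± 27.4 against 17.4 ± 9.29 CPM (adjusted p = 0.000156). In tumors against vehicles Ccnd1 was 83.5 ± 19.8 against 9.87 ± 3.03 CPM (log2 3.06, adjusted p = 5.06e-07).

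Of 17 senescence-associated secretory genes tested at 5 months, 13 were higher in high-risk livers and 1 lower (median log2 1.33), where 20.3% and 18.5% of all genes were. Mmp12, a macrophage elastase, was 14.7 ± 7.42 against 0.661 ± 0.62 CPM (adjusted p = 5.81e-07) and Timp1 1.44 ± 0.972 against 0.111 ± 0.191 CPM (adjusted p = 5.32e-06), whereas Vegfa was lower (53.8 ± 13.8 against 88.6 ± 20.6 CPM, adjusted p = 2.23e-05). At 10 months 14 of 17 were higher in uninvolved livers and 0 lower (median 1.11), where 27.7% and 24.7% of all genes were. Il6, a cytokine often used to define this secretion, had a median of 0 CPM in both risk groups of 5 months. Of 10 genes of the integrated stress response 8 were higher and 1 lower at 5 months (median 1.02), and 4 and 1 at 10 months. Of 9 immediate early genes, a list that did not hold Btg2, 3 and then 5 were higher. Of 12 circadian clock genes 0 were higher and 4 lower at 5 months (median -0.92) and 1 higher and 1 lower at 10 months (median 0.21). These genes were not chosen independently of earlier results, and over all genes the median log2 fold change was -0.01 at 5 months and 0.05 at 10 months.

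**Figure D4:**
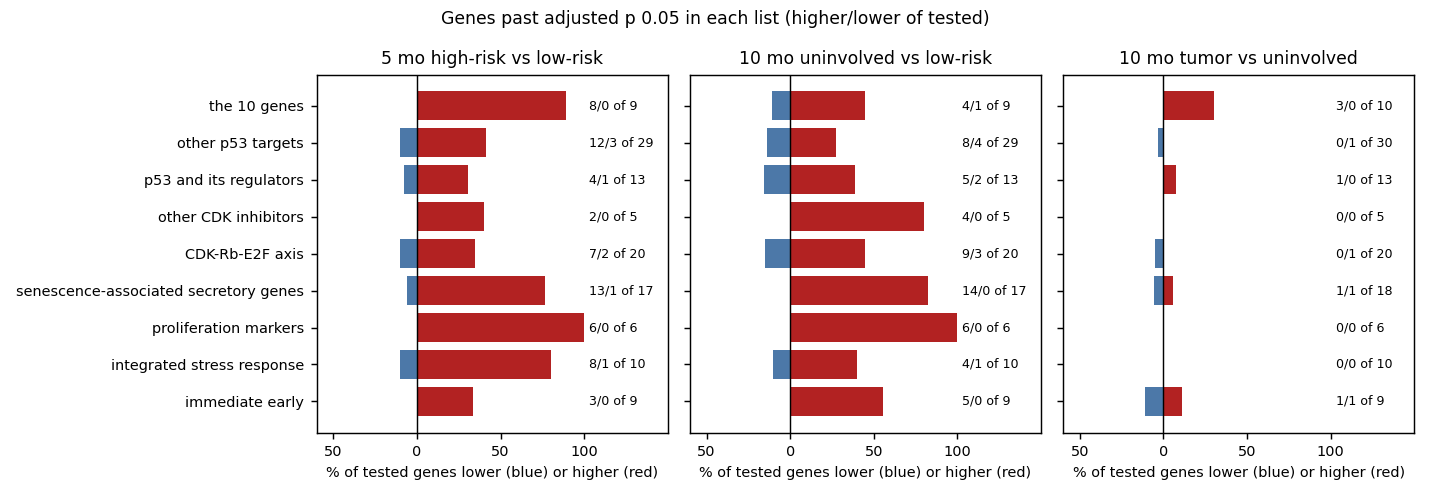
Share of tested genes past an adjusted p of 0.05 in each list, higher in red and lower in blue, in 3 comparisons, with the counts (higher/lower of tested) printed at the right. The 10 genes have 8, 4 and 3 genes higher, and few genes of the other lists differ between tumors and uninvolved livers.

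Markers of some cell types also differed between the groups, and their counts are to be read against the shares of all genes called. Those shares were 20.3% higher and 18.5% lower between risk groups at 5 months, and 27.7% and 24.7% at 10 months. Several counts below were near these shares. At 5 months 6 of 6 proliferation markers were higher in high-risk than low-risk livers, with summed levels of 27.7 to 234.4 CPM against 6.31 to 41.0 CPM. Of 5 cholangiocyte and progenitor markers 4 were higher (32.8 to 342.4 against 25.8 to 220.5 CPM), of 6 stellate cell and fibroblast markers 5 were higher and 1 lower (237.7 to 830.3 against 75.8 to 176.3 CPM), and of 6 hepatocyte markers 3 were lower. Of the other lists 2 of 6 macrophage markers were higher and 1 lower, 0 of 5 endothelial higher and 3 lower, 1 of 5 B and plasma cell higher and 0 lower, 2 of 3 T cell higher and 1 lower, 0 of 4 erythroid higher and 1 lower, and 0 of 2 neutrophil markers were called. Of 5 other senescence markers 1 was higher and 1 lower. At 10 months 6 of 6 proliferation and 5 of 5 cholangiocyte markers were higher in uninvolved than low-risk livers, and of 6 stellate markers 4 were higher and 1 lower. Proliferation sums were 13.2 to 92.1 against 5.09 to 11.9 CPM. Of 6 macrophage markers 1 was higher and 4 lower (137.8 to 279.1 against 278.1 to 340.8 CPM), of 6 hepatocyte markers 0 and 3, of 5 endothelial markers 1 and 2, of 4 T cell markers 2 and 0, of 5 B and plasma cell markers 1 and 0, of 4 erythroid markers 0 and 1, and of 2 neutrophil markers 0 and 1. Of the 5 other senescence markers 2 were higher and 1 lower. Between tumors and uninvolved livers 0 of 6 proliferation markers were called. No marker of the proliferation, cholangiocyte, stellate and hepatocyte lists had a median of 0 in any group. The part of cell composition and proliferation in the differences of the 10 genes was not tested.

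Across the 73 samples, likeness in pattern was measured as Spearman's rho of log2 CPM against 12309 named genes whose mean reached 1 CPM. The samples share groups, batches and composition, so rho is given as a description. Btg2 was most like Neu3 (rho 0.87), Tubb6 and Flna (0.83 each), Phlda3 most like Npdc1 (0.84), Sh3pxd2b and Icosl, and Cdkn1a most like Myadm (0.83), Rbl1 and Slfn9. Mdm2 was most like Impact (0.83), Ccng1 most like Mtmr6 (0.82), Eda2r most like Exoc4 (0.80), Gdf15 most like Fgf21 (0.73) and Trp53inp1 most like Wdr44 (0.70). Among the members, Btg2 and Cdkn1a had rho 0.78, Ccng1 and Mdm2 0.77, and Btg2 and Phlda3 0.74. Cdkn1a had rho -0.04 with Mdm2 and -0.10 with Ccng1, the other two genes with a p53 half-site in the windows printed above.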

How the data were processed

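The authors deposited 1 table of read counts, in whole numbers, with a row for each gene and a column for each library. Per the submitters' processing notes the tools were Trim Galore, HISAT2 and featureCounts with mm10, and per the file name counts were adjusted between batches with ComBat-seq, whose settings are not given in the sources used here. From these counts edgeR 4.0.16 (R 4.3.3) fitted TMM-scaled quasi-likelihood models with filterByExpr and robust dispersion, with Benjamini-Hochberg adjustment over all genes tested and a threshold of 0.05. The 5-month fit had batch as a covariate, tumors were fitted with the compared group alone, and vehicles of batch 1 were used across ages. Standard errors follow from the F statistic. The fits were tested on simulated counts. Libraries of 3-week vehicle mouse 3 and of uninvolved livers 3 and 6 were summed. The floor of 3 counts covers counting error only.

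The members, the gene lists and the designs were chosen with earlier results of these data known. Named genes are the 10 members, up to 2 higher and 2 lower list genes with the smallest adjusted p in the main comparisons (1 each way in others) and the 3 genes of highest rho. Tumors and uninvolved livers are paired because the labels give them the same mouse. The correlation of deviations within a pair ran from -0.38 to 0.71. Uninvolved livers and vehicles of 10 months are different mice that share 4 numbers, whose correlations were weak, 0.11 to 0.14. Uninvolved liver 7 correlated better with a vehicle of another number (0.33). The number as a block is an alternative fit here and not a pairing given by the labels. Alternatives were RLE scaling, no filter, DESeq2 1.42.0, other batch terms, left-out samples and replicate blocks.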

Additional observations from a re-analysis of the deposited data

Results flagged for a closer look

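In 11 of 80 groups of 4 to 10 samples (10 genes, 8 groups), 1 sample lay far from the others. The rule is set to flag about 1 in 20 groups of independent, normally distributed values. CPM were not shown to be so distributed and the genes share samples, so the 11 are not read as an excess. At 3 weeks TBT 5 was the high sample for Btg2 (124.3 CPM), Gdf15 (10.4 CPM) and Trp53inp1 (191.5 CPM), and vehicle 4 for Gdf15 (4.19 CPM). At 5 months vehicle 9 was low for Ccng1 (17.6 CPM) and high-risk 15 high for Trp53inp1 (349.5 CPM). Vehicle 9 had few counts and many genes detected, and high-risk 15 had 14.5% mitochondrial counts. At 10 months the high samples were low-risk 8 for Btg2 (21.2 CPM), low-risk 10 for Gdf15 (23.5 CPM), vehicle 5 for Cdkn1a (6.45 CPM), vehicle 6 for Cdkn2b (0.618 CPM) and the summed uninvolved sample of mice 3 and 6 for Cdkn2a (0.596 CPM).

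The estimated change in the difference between risk groups from 5 to 10 months was -0.73 on the log2 scale for Ccng1 and -1.85 for Eda2r. As an interaction in edgeR's quasi-likelihood test, these were near the threshold (adjusted p = 0.0462 and 0.0434). Neither was called with RLE size factors, with no filter on low counts or with no batch covariate.

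The 10-month vehicle library labelled as a tumor was in no comparison. It lay above all 6 vehicles of its age for 6 of the 10 genes: Cdkn1a at 53.4 CPM (vehicles up to 6.45), Trp53inp1 at 192.9 CPM (up to 133.5), Mdm2 at 39.6 CPM (up to 30.4), Btg2 at 34.0 CPM (up to 18.9), Eda2r at 7.94 CPM (up to 1.80) and Phlda3 at 3.74 CPM (up to 0.863). Its Cdkn1a was also above every one of the 7 tumors from TBT mice (up to 21.8 CPM), while it had 0 counts of Cdkn2a. It is 1 library with 14.1% mitochondrial counts, and the part of its quality was not tested.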

How the results depend on the processing

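The count of members called at 5 months between high-risk and low-risk livers was 8, and 2 within batch 1, where fewer livers were compared. For high-risk livers against vehicles it was 4, and 1 with no filter on low counts, 0 within batch 1, 0 within batch 2, 0 with the replicate number as a block, and 2 to 6 leaving out single deviating libraries (an alternative added after seeing the data). Low-risk livers against 5-month vehicles had 0, and 1 by DESeq2. Uninvolved livers against vehicles had 5, and 3 with the vehicle labelled tumor counted as vehicle. That setting left 0 of 3 falls from 5 to 10 months, and it ended the calls of Cdkn1a and Trp53inp1 between tumors and vehicles. Tumors against uninvolved livers had 3, and 1 with no filter, 5 by DESeq2 and 1 to 2 leaving out single uninvolved samples. From 3 weeks to 5 months the count of 4 became 2 with no filter and 2 with a replicate block, and from 5 to 10 months 3 became 1 with a block. The 2 changes of the risk difference became 0 with RLE size factors, with no filter, with no batch covariate and in batch 1 only, 1 without technically deviating libraries, and 0 to 1 leaving out single samples of 10 months. The causes were not tested. No called direction reversed in the alternatives run. Replicate numbers of tumors and uninvolved livers name the same mouse, and the replicate block gave 2 calls over 6 pairs and 3 over 4 pairs. Between uninvolved livers and vehicles, where mice share only a number, the block gave 4 calls. Mice also share only a number in the other comparisons: the block gave 5 calls in place of 7 between tumors and vehicles. No comparison had every mouse correlating best with its own number. Depth limits Cdkn2a and Cdkn2b most.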
